A study of Homo sapiens with 10 samples.

Results

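miR-31 is a microRNA whose hairpin gives 2 mature strands, hsa-miR-31-5p from its 5′ arm and hsa-miR-31-3p from its 3′ arm. Both strands were taken by name from a deposited table of 2576 mature miRNAs, so the description covers 2 of 2576 miRNAs, each measured in all 10 libraries. The pair was chosen by an earlier reading of these same data, in which the normalised read count of miR-31-5p was higher in siIGF2BP3 than in siC. For both strands of miR-31, every contrast with the siIGF2BP3 libraries is therefore given as a description, with no test.

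The libraries are small RNA sequencing libraries of ES-2, an established human ovarian cancer cell line. The cells had been transfected with siRNA pools against IGF2BP1 (siIGF2BP1, 2 libraries), IGF2BP2 (siIGF2BP2, 3 libraries) or IGF2BP3 (siIGF2BP3, 3 libraries), or with control siRNAs (siC, 2 libraries). The 3 target genes encode related RNA-binding proteins that associate with mRNAs and influence their stability and translation. All groups share the parental line and its growth medium. Neither the time after transfection nor the use of separate cultures for replicates is given in the labels. The p-values therefore reflect how much these libraries vary, and that variation may be technical. mRNAs were not measured, so depletion of the siRNA targets was not checked here.

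The series as a whole sets these limits. Libraries held 462724 to 1269743 miRNA reads, and 1 read was worth 0.80 to 2.0 normalised reads. By their source names the samples form a pair of blocks, siIGF2BP2 with siIGF2BP3 and siIGF2BP1 with siC. Contrasts across these blocks cannot be told apart from the block, which leaves siIGF2BP3 vs siIGF2BP2 and siIGF2BP1 vs siC as the contrasts inside one block. Of 20 marker miRNAs of other cell types and tissues (blood, endothelium, smooth muscle, the imprinted 14q32 cluster, endocrine, liver, muscle and neural), 19 were matched in the table by name. The muscle marker miR-1-3p was not matched under that name. Their summed normalised read count was 1707 to 3760 in siIGF2BP1, 41.0 to 70.8 in siIGF2BP2, 45.0 to 196 in siIGF2BP3 and 3544 to 4582 in siC. Of these 19, 2 were at 0 in every siIGF2BP1 library, 14 in every siIGF2BP2 library, 10 in every siIGF2BP3 library and 2 in every siC library. The blood marker miR-486-5p and the liver marker miR-122-5p were at 0 in all 10 libraries. The neural marker miR-124-3p, the muscle marker miR-133a-3p and the blood markers miR-144-3p and miR-223-3p were at 0 in every siIGF2BP2 and siIGF2BP3 library. The same held for the smooth muscle marker miR-145-5p and for miR-487b-3p, miR-136-3p and miR-432-5p of the 14q32 cluster. In siC, miR-223-3p and miR-133a-3p averaged only 1.33 normalised reads each and miR-145-5p only 3.33 (SD 4.71), so their 0 values say little. Not every marker was lower in siIGF2BP2 and siIGF2BP3. The blood marker miR-142-3p averaged 20.7 in siIGF2BP1, 38.9 in siIGF2BP2, 82.9 in siIGF2BP3 (SD 78.7) and 35.6 in siC. The part of these differences in the miR-31 values was not tested.

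A microRNA guides Argonaute proteins to mRNAs, mainly through its seed, the bases near its 5′ end. One strand of the hairpin duplex is usually retained as the guide, and the other is mostly degraded. miR-31-5p is the guide strand of miR-31. It is best known from breast cancer, where it restrains invasion and metastasis through targets such as RHOA, ITGA5 and RDX. The gene lies near the tumour suppressor gene CDKN2A at 9p21, a region deleted in many tumours.

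The sequences of the guide strand and its hairpin are shown because all values below refer to strands cut from this one precursor. They are given 5′ to 3′ from the RefSeq table of build GRCh38.p14. In the mature strand the capitals mark the seed (bases 2 to 8), and in the hairpin they mark miR-31-5p (bases 8 to 28). Both lie on the minus strand, the mature strand at chr9:21512158-21512178 and the hairpin at chr9:21512115-21512185.
miR-31-5p: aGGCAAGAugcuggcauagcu
MIR31 hairpin: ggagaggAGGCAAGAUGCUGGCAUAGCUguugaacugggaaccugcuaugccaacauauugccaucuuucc

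In GENCODE 29, the hairpin overlaps 0 exons of MIR31HG, the host gene on the same strand. It lies in the intron between exons 1 and 2 of that gene's 1 annotated transcript of 4 exons. RNAfold 2.7.2 predicted a fold of the 71-base hairpin with 27 base pairs and a free energy of -36.8 kcal/mol. In this fold 17 of the 21 bases of miR-31-5p are paired, among them 6 of its 7 seed bases, with partners between hairpin positions 45 and 63 on the opposite arm. RefSeq matched 1 of the 2 strands and 788 of the 889 miRNAs tested. Among 2370 mature names of that table, 0 others shared bases 2 to 8 of miR-31-5p. Only miR-6809-5p, encoded on chromosome 2, shared bases 2 to 7, which the capitals mark. It is shown because it is the nearest seed relative, and it had 0 reads in the 10 libraries.
miR-6809-5p: uGGCAAGgaaagaagaggauca

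miR-31-5p was an abundant miRNA of ES-2 cells. Over the 10 libraries its mean normalised read count was 4014, which placed it 31st, between miR-186-5p at 4622 and miR-30e-5p at 3932. It was supported by 30585 reads in all. The deposited normalised read counts were 3062 and 3236 in siIGF2BP1, 3073, 2810 and 3274 in siIGF2BP2, 6005, 5919 and 5544 in siIGF2BP3, and 3686 and 3531 in siC. All 3 siIGF2BP3 libraries lay above the other 7 libraries with no overlap. The siIGF2BP1 libraries and the siIGF2BP2 libraries overlapped each other, and both groups lay below the siC libraries with no overlap.

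Group means of miR-31-5p were 3149 ± 123 normalised reads in siIGF2BP1 (SD, n = 2), 3052 ± 232 in siIGF2BP2 (SD, n = 3), 5823 ± 245 in siIGF2BP3 (SD, n = 3) and 3609 ± 110 in siC (SD, n = 2). The order of the means was siIGF2BP3, siC, siIGF2BP1 and siIGF2BP2, and the last 2 differed by less than their spread. The coefficient of variation within a group was 3.90% in siIGF2BP1, 7.61% in siIGF2BP2, 4.21% in siIGF2BP3 and 3.05% in siC. As a share of all miRNA reads in the library, which does not use the authors' scaling, miR-31-5p took 0.318% ± 0.0246 in siIGF2BP1, 0.318% ± 0.0251 in siIGF2BP2, 0.623% ± 0.0236 in siIGF2BP3 and 0.383% ± 0.0299 in siC. By reads within a library, miR-31-5p ranked 36th or 37th in siIGF2BP1 and in siIGF2BP2, 24th to 26th in siIGF2BP3, and 32nd or 33rd in siC.

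**Figure D1:**
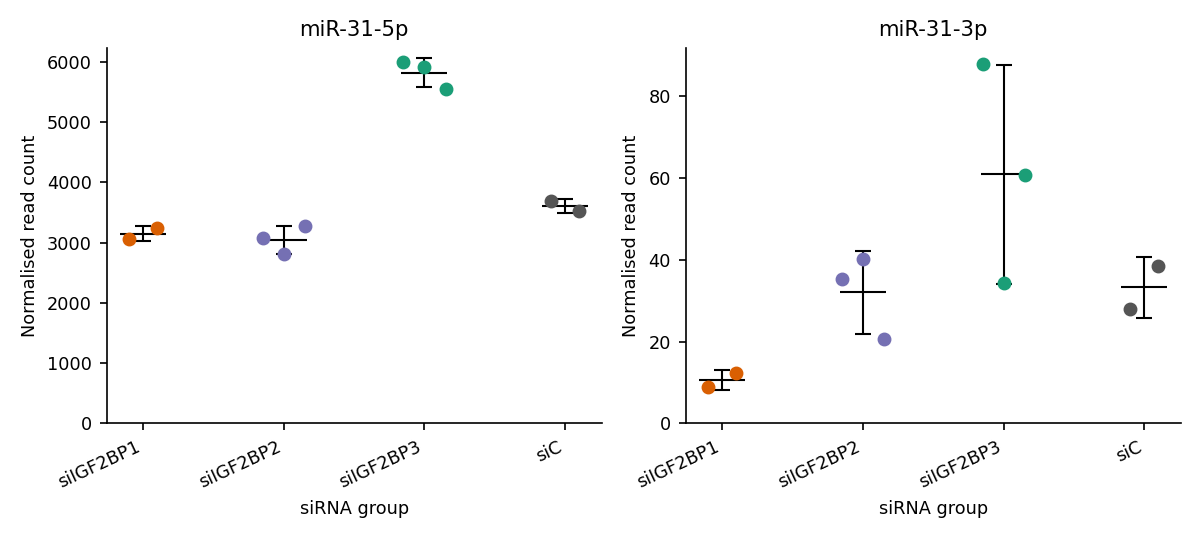
Normalised read count (y axis, linear, from 0) of miR-31-5p (left) and miR-31-3p (right) in each library, by siRNA group (x axis), with points for libraries, long horizontal lines for group means and error bars for 1 SD. For miR-31-5p the 3 siIGF2BP3 libraries lie between 5544 and 6005, above the other 7, and for miR-31-3p the 2 siIGF2BP1 libraries, at 8.84 and 12.3, lie below the other 8.

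Within the block of siIGF2BP2 and siIGF2BP3 libraries, miR-31-5p was 1.91-fold higher in siIGF2BP3 than in siIGF2BP2, a log2 difference of 0.93 (SE 0.09). Of the 56 miRNAs with a mean of at least 1000 normalised reads, 0 had a larger difference in this direction, while 61 of all 889 miRNAs tested had one. Across the blocks, it was 1.61-fold higher in siIGF2BP3 than in siC (log2 0.69, SE 0.10), and 2 of those 56 miRNAs and 120 of all 889 had a larger one. Against siIGF2BP1 it was 1.85-fold higher in siIGF2BP3 (log2 0.89, SE 0.10), and 5 of the 56 and 46 of all 889 had a larger one. The background of such separations was not small: with values non-overlapping and higher in siIGF2BP3, 7.99% of the 889 miRNAs stood apart from siIGF2BP2, 11.2% from siC and 9.45% from siIGF2BP1. The places among the 56 and the 889 miRNAs only describe a miRNA chosen for high siIGF2BP3 values, which made a high place likely beforehand.

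The knockdowns that did not enter the choice of miR-31 allow a test of the other contrasts, although siIGF2BP1 vs siC and siIGF2BP2 vs siC share the siC libraries with the contrast that led to that choice. In siIGF2BP1 against siC, miR-31-5p had a log2 difference of -0.20 (SE 0.11, 95% interval -0.43 to 0.04) and did not pass limma's test (adjusted p = 0.471). By that test 2.47% of the 889 miRNAs were called, while non-overlapping lower values, as miR-31-5p had, were found for 11.9%. Under the count models on recovered reads, the same contrast passed. Its log2 difference was -0.45 in edgeR (adjusted p = 0.0175) and -0.43 in DESeq2 (adjusted p = 0.0038). The shares of all miRNAs that edgeR and DESeq2 called in this contrast are not given. With median of ratios scaling, the difference was also -0.43 but did not pass (limma adjusted p = 0.0646). The authors' deposited table gives a log2 fold change of -0.196 and a p-value of 0.192 for miR-31-5p.

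In siIGF2BP2 against siC, the log2 difference of miR-31-5p was -0.24 (SE 0.10, 95% interval -0.46 to -0.03), and limma's adjusted p was 0.194. Of the 889 miRNAs, 7.76% were called lower, 1.24% were called higher and 16.1% had non-overlapping lower values in siIGF2BP2. The sign depended on the scaling, at 0.16 with upper quartile factors, and DESeq2 alone passed the threshold (log2 -0.31, adjusted p = 0.0395). Between siIGF2BP2 and siIGF2BP1, the log2 difference was -0.05 (95% interval -0.26 to 0.17, limma adjusted p = 0.834), against 13.5% of miRNAs called. That difference was positive with median of ratios (0.12), library totals (0.0020), edgeR (0.15), DESeq2 (0.12) and upper quartile factors, and among these it passed the threshold with upper quartile factors alone (0.58, limma adjusted p = 0.00834).

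**Figure D2:**
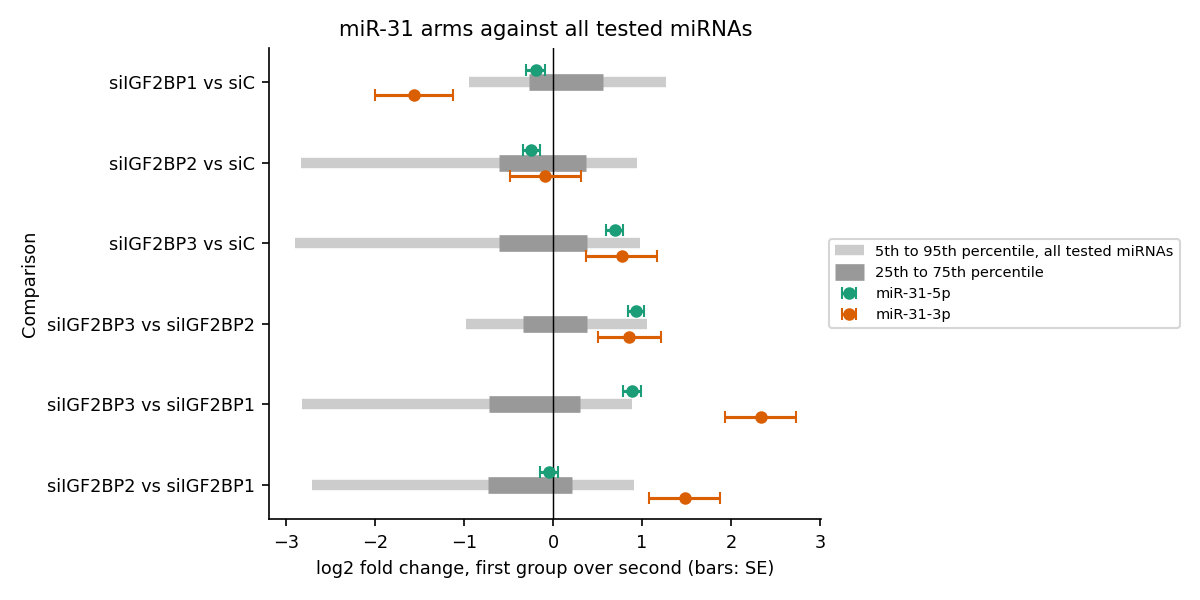
log2 fold change of the first named group over the second (x axis) in 6 comparisons (y axis), with points for miR-31-5p and miR-31-3p, error bars for 1 SE, and grey bars for the 5th to 95th and the 25th to 75th percentiles of all 889 miRNAs tested. miR-31-5p lies at 0.69 to 0.93 in the 3 comparisons of siIGF2BP3, and miR-31-3p lies below the grey bar in siIGF2BP1 vs siC (-1.57) and above it in siIGF2BP3 vs siIGF2BP1 (2.34) and siIGF2BP2 vs siIGF2BP1 (1.48).

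The scaling between libraries sets the size of these differences but not the place of siIGF2BP3. With the values as deposited, the lowest siIGF2BP3 library had 5544 normalised reads of miR-31-5p and the highest of the other 7 libraries had 3686. With TMM factors these values were 5755 and 4062, with median of ratios 5437 and 3970, with upper quartile factors 6526 and 4285, and with library totals 6060 and 4040. In all 5 scalings the 3 siIGF2BP3 libraries were above every other library. The log2 difference between siIGF2BP3 and siC ran between 0.58 and 1.07 over these and the other settings tried.

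**Figure D3:**
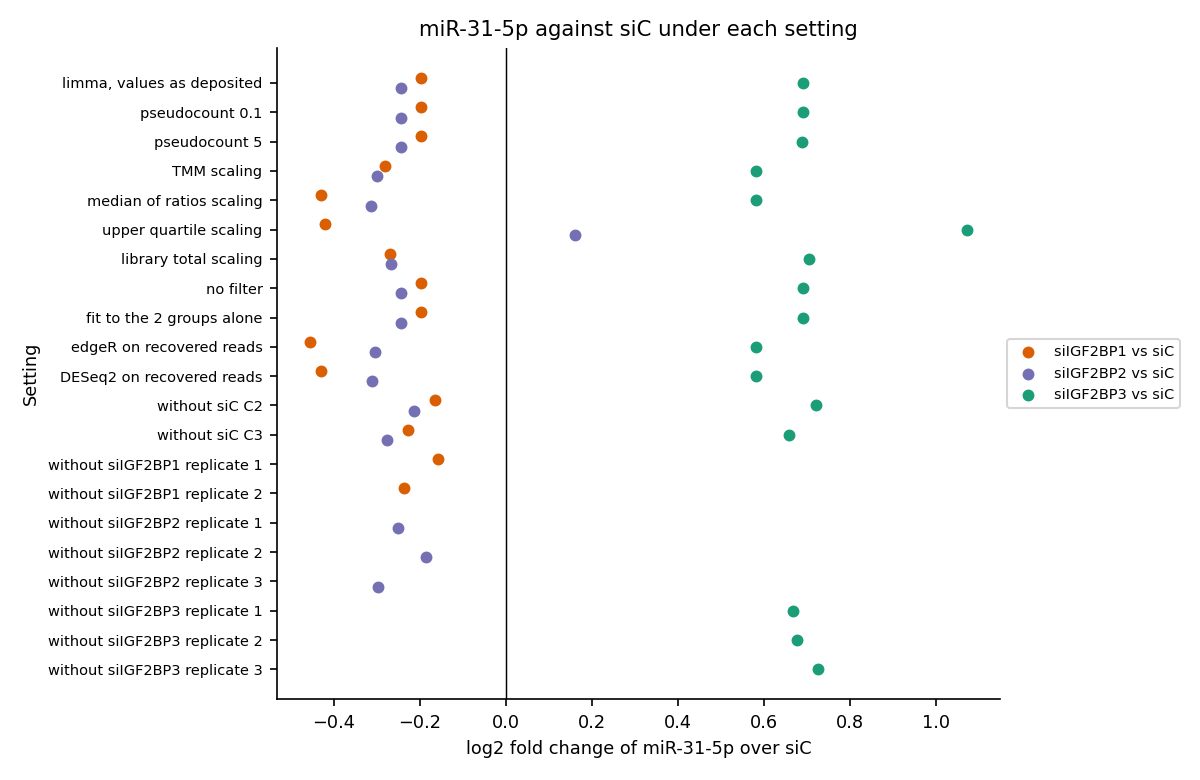
log2 fold change of miR-31-5p over siC (x axis) in siIGF2BP1, siIGF2BP2 and siIGF2BP3 (colours) under each setting (y axis), with 1 point for each fit that applies. The siIGF2BP3 points lie between 0.58 and 1.07, the siIGF2BP1 points lie between -0.45 and -0.16, and the siIGF2BP2 points lie below 0 except with upper quartile scaling (0.16).

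miR-31-3p, the strand that is mostly degraded, was found at far lower levels. Its mean was 36.7 normalised reads, 214th among the miRNAs, between miR-577 at 37.1 and miR-501-3p at 36.2, and it rested on 253 reads in all. The normalised read counts were 8.84 and 12.3 in siIGF2BP1, 35.4, 40.1 and 20.7 in siIGF2BP2, 87.8, 34.3 and 60.7 in siIGF2BP3, and 28.0 and 38.6 in siC. Both siIGF2BP1 libraries lay below the other 8 libraries. Of the 889 miRNAs tested, 11.9% had non-overlapping lower values in siIGF2BP1 than in siC. Non-overlapping values higher than in siIGF2BP1 were found for 7.99% in siIGF2BP2 and 9.45% in siIGF2BP3. The siIGF2BP2, siIGF2BP3 and siC libraries overlapped one another, and siIGF2BP3 held both the highest library and one within the range of siC.

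These levels rested on 11 and 14 reads in siIGF2BP1, 25, 21 and 12 in siIGF2BP2, 44, 29 and 51 in siIGF2BP3, and 17 and 29 in siC. Group means were 10.6 ± 2.48 normalised reads in siIGF2BP1 (SD, n = 2), 32.1 ± 10.1 in siIGF2BP2 (SD, n = 3), 60.9 ± 26.7 in siIGF2BP3 (SD, n = 3) and 33.3 ± 7.46 in siC (SD, n = 2). The order was siIGF2BP3, siC, siIGF2BP2 and siIGF2BP1, and only siIGF2BP1 stood apart from its neighbour beyond their spread. The coefficient of variation was 22.4% to 43.9% within groups, against 3.05% to 7.61% for miR-31-5p.

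In siIGF2BP1 against siC, within a block, the log2 difference of miR-31-3p was -1.57 (SE 0.44, 95% interval -2.51 to -0.62), and 9 of 889 miRNAs had a lower one. It did not pass limma's test (adjusted p = 0.0784). It passed with median of ratios scaling (log2 -1.78, limma adjusted p = 0.0469), without the filter on low values (-1.57, limma adjusted p = 0.0324), in edgeR (-1.91, adjusted p = 0.0328) and in DESeq2 (-1.89, adjusted p = 0.0266). It did not pass limma's test with TMM (adjusted p = 0.0787), upper quartile factors (0.0504) or library totals (0.08). Nor did it pass with a pseudocount of 0.1 (limma adjusted p = 0.118) or 5 (0.0826), or in a fit to these 2 groups alone (0.136). With single libraries left out, the log2 difference was -1.79 to -1.34. In this contrast limma's main test called 2.47% of the 889 miRNAs. The authors' deposited table gives a log2 fold change of -1.66 and a false discovery rate of 0.109 for miR-31-3p.

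In siIGF2BP2 against siC, the log2 difference of miR-31-3p was -0.09 (95% interval -0.95 to 0.78, limma adjusted p = 0.957). It was positive with upper quartile scaling (0.30), and between -0.31 and 0.19 when single libraries were left out, so its sign was not fixed. In siIGF2BP2 against siIGF2BP1, across the blocks, miR-31-3p was 2.78-fold higher (log2 1.48, SE 0.40, limma adjusted p = 0.0277), and 7 of 889 miRNAs had a larger difference. Higher calls in that contrast made up 1.69% of the 889 miRNAs, and non-overlapping higher values 7.99%. The call was lost without siIGF2BP1 replicate 1 (limma adjusted p = 0.24), without siIGF2BP1 replicate 2 (0.108), without siIGF2BP2 replicate 1 (0.0772) and without siIGF2BP2 replicate 2 (0.086). It was also lost in a fit to the knockdown libraries alone (0.0506), an alternative chosen after seeing the data.

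The siIGF2BP3 libraries again gave the highest mean of miR-31-3p. The log2 difference was 0.86 (SE 0.36) from siIGF2BP2, 0.77 (SE 0.40) from siC and 2.34 (SE 0.40) from siIGF2BP1. The last is the largest of the 889 miRNAs in that contrast, a fold of 5.05, and it crosses the blocks. It rests on 25 reads of miR-31-3p in all in siIGF2BP1. Non-overlapping higher values in siIGF2BP3 than in siIGF2BP1 were found for 9.45% of the 889 miRNAs. This place, too, only describes a strand of a miRNA chosen for high siIGF2BP3 values. The 95% interval from siC, -0.10 to 1.64, holds 0.

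The share of miR-31 reads that came from miR-31-3p compares the strands within a library, so the scaling between libraries drops out. Read counts were not divided by strand length. The share was 0.288% and 0.380% in siIGF2BP1, 1.14%, 1.41% and 0.629% in siIGF2BP2, 1.44%, 0.576% and 1.08% in siIGF2BP3, and 0.755% and 1.08% in siC. Both siIGF2BP1 libraries were below the other 8 libraries, and the other groups overlapped. Expressed the other way, there were 347 and 262 reads of miR-31-5p for each read of miR-31-3p in siIGF2BP1, 70.1 to 158 in siIGF2BP2, 68.4 to 173 in siIGF2BP3, and 131 and 91.5 in siC.

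Summed over the libraries of a group, the share was 25 of 7508 miR-31 reads in siIGF2BP1, or 0.333% (exact Clopper-Pearson 95% interval 0.216% to 0.491%). It was 58 of 5598 in siIGF2BP2, or 1.04% (0.788% to 1.34%), and 124 of 12798 in siIGF2BP3, or 0.969% (0.807% to 1.15%). In siC it was 46 of 4934, or 0.932% (0.683% to 1.24%). These intervals cover counting error only, and the siIGF2BP1 interval lies below the other 3.

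**Figure D4:**
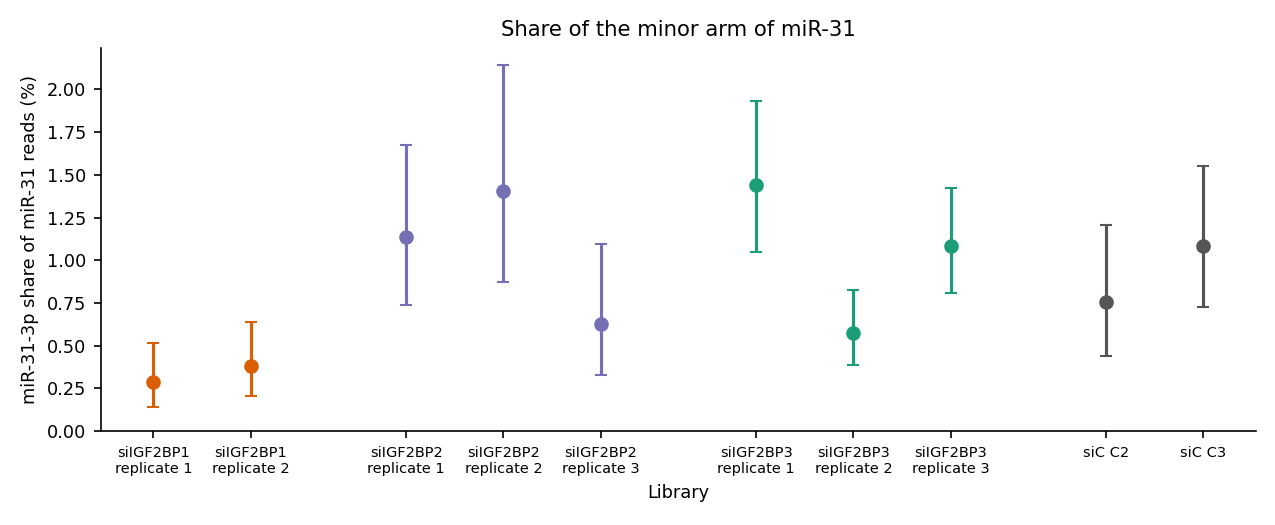
Share of miR-31 reads that are miR-31-3p (in %, y axis, from 0) in each of the 10 libraries (x axis, colours for groups), where error bars are exact 95% intervals of a binomial share. The siIGF2BP1 libraries, at 0.288% and 0.380%, have the lowest points, and siIGF2BP3 spans 0.576% to 1.44%.

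Mean shares over libraries were 0.334% ± 0.0652 in siIGF2BP1 (SD, n = 2) and 0.918% ± 0.231 in siC (SD, n = 2), a difference of -0.584 percentage points. The exact permutation p was 0.333 (two-sided), the smallest that 2 against 2 libraries can give. Among 78 hairpins with at least 5 mean reads on both arms, 10.3% had a non-overlapping lower share of the minor arm in siIGF2BP1 than in siC, and 38.5% were non-overlapping in either direction. On a log2 scale the ratio of mean shares was -1.46 for miR-31 and 0.19 for the median hairpin, and 1 hairpin had a lower ratio than miR-31.

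In siIGF2BP2 the mean share was 1.06% ± 0.395 (SD, n = 3). It exceeded siIGF2BP1 by 0.724 percentage points (two-sided exact permutation p = 0.2, the smallest that 3 against 2 libraries can give) and siC by 0.140 percentage points (two-sided exact permutation p = 0.7). Non-overlapping higher shares in siIGF2BP2 than in siIGF2BP1 were found in 7.89% of hairpins. Of 76 hairpins in that contrast, 73 had a log2 ratio below that of miR-31, 1.66, and 0 had one above it. Hairpins with a mean share of 0 in a group had no ratio and were not placed. In siIGF2BP3 the mean share was 1.03% ± 0.435 (SD, n = 3), 0.0246 percentage points below siIGF2BP2, 0.115 above siC and 0.699 above siIGF2BP1. Non-overlapping higher shares in siIGF2BP3 than in siIGF2BP1 were found in 14.5% of hairpins. The strand balance of miR-31 in siIGF2BP3 overlapped that in siIGF2BP2 and in siC while the level of miR-31-5p did not. Over all libraries the minor arm of miR-31 had a mean share of 0.878%, against a median of 8.85% over the 78 hairpins, 15 of which had a lower share.

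The miRNAs whose profile over the 10 libraries was most like that of miR-31-5p were found by the root mean square difference of log2(value + 1), each centred on its own mean. Among 148 other miRNAs with a mean of at least 100 normalised reads these were miR-222-3p (0.177), miR-155-5p (0.186), miR-3615 (0.205), miR-182-5p (0.218) and miR-93-5p (0.226). For scale, miR-31-5p itself had a root mean square of 0.404 about its mean. Their mature strands from RefSeq are shown, with bases 2 to 8 in capitals, because the 5 seeds can be read against that of miR-31-5p.
miR-222-3p: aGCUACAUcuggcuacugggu
miR-155-5p: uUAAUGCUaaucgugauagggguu
miR-3615: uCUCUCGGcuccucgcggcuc
miR-182-5p: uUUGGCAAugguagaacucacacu
miR-93-5p: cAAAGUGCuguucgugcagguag

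No seed among these 5 was that of miR-31-5p. miR-222-3p, which targets the cell cycle inhibitor CDKN1B, averaged 48416 normalised reads in siIGF2BP1, 45746 in siIGF2BP2, 68425 in siIGF2BP3 and 47393 in siC. miR-155-5p, best known from lymphocytes and inflammation, averaged 5182 in siIGF2BP1, 6251 in siIGF2BP2, 9510 in siIGF2BP3 and 7159 in siC. In log2 terms the difference between siIGF2BP3 and siC was 0.53 for miR-222-3p, 0.41 for miR-155-5p, 0.36 for miR-3615, 0.33 for miR-182-5p and 0.34 for miR-93-5p, each smaller than the 0.69 of miR-31-5p. For miR-31-3p the nearest 3 of 149 miRNAs were miR-221-5p (0.649), miR-182-5p (0.669) and miR-155-5p (0.684), against its own root mean square of 0.903.

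**Figure D5:**
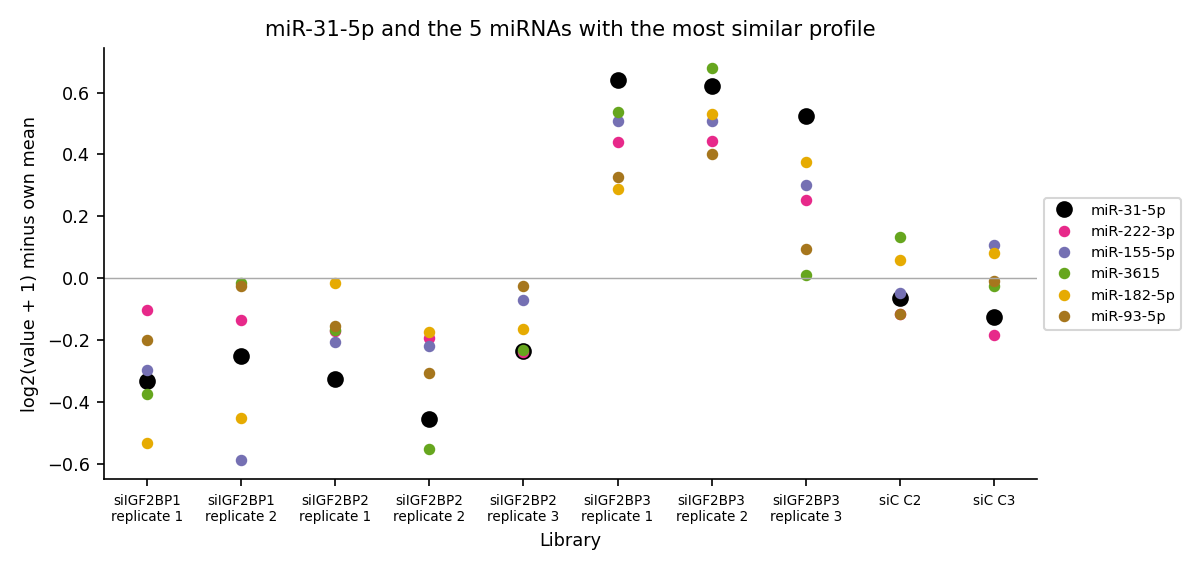
log2(normalised read count + 1) minus the miRNA's own mean over 10 libraries (y axis) in each library (x axis) for miR-31-5p (large black points) and the 5 miRNAs with the smallest root mean square difference from it. In siIGF2BP3 all 6 miRNAs lie above their own mean in all 3 libraries, and these 5 were chosen for that likeness.

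Other miRNAs of 9p21 were at far lower levels than miR-31-5p. Of 6 strands of miR-491, miR-873 and miR-876 on the list, 5 were tested. In siIGF2BP3 against siC limma called 0 of the 5 (1 at an unadjusted p under 0.05), where it called 8.66% of all 889 miRNAs lower. edgeR and DESeq2 each called 1 of 2, lower, and their own shares over all miRNAs are not given. The median log2 difference was -1.29 against 0 over all 889 miRNAs. In siIGF2BP1 against siC, limma, edgeR and DESeq2 each called 0 of the list, where limma called 2.47% of all 889 miRNAs. Of the list, 0 had an unadjusted p under 0.05 (median 0.44 against 0.10). In siIGF2BP2 against siC, limma called 0 higher and 1 lower, where 7.76% of all 889 miRNAs were called lower (median -1.05 against -0.03).

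The strand called in siIGF2BP2 was miR-873-5p, at 1.79 ± 1.73 normalised reads in siIGF2BP2 (SD, n = 3) and 49.1 ± 62.4 in siC (SD, n = 2), a log2 difference of -3.33 (limma adjusted p = 0.0406). The siC libraries were far apart, and without siC C3 the difference was -1.34 (limma adjusted p = 0.464). The call was also lost without siIGF2BP2 replicate 1 (limma adjusted p = 0.127), without siIGF2BP2 replicate 2 (0.0716), with a pseudocount of 0.1 (0.114) and in a fit to these 2 groups alone (0.194). miR-491-3p, from the same chromosome band, had a mean of at most 0.882 normalised reads in any group. Only 2 members had more than 3 reads in all in either group, and over these the median log2 difference from siC was 0.44 in siIGF2BP1, -2.19 in siIGF2BP2 and -1.57 in siIGF2BP3.

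miR-31 is often grouped with miRNAs that restrain metastasis. Of 11 others on that list 8 were tested, and in siIGF2BP3 against siC limma called 0 higher and 3 lower, where 1.91% of all 889 miRNAs were called higher and 8.66% lower. edgeR called 2 lower of 3 and DESeq2 2 lower of 6, and each called 0 higher, with no share over all miRNAs given for either. miR-146a-5p, which dampens NF-kappaB signalling, averaged 210 ± 14.9 normalised reads in siIGF2BP3 (SD, n = 3) and 419 ± 4.40 in siC (SD, n = 2), a log2 difference of -0.99 (limma adjusted p = 0.000153). miR-126-3p, typical of endothelium, averaged 1.06 ± 1.0 in siIGF2BP3 and 24.8 ± 16.2 in siC (limma adjusted p = 0.00136), and it is also one of the marker miRNAs above.

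miR-34a-5p, which p53 induces, was at 0 in siIGF2BP3 and at 7.13 ± 3.09 in siC, which is at least 4.90-fold lower when the siIGF2BP3 group is set at 3 reads in all (limma adjusted p = 0.0197). That call was lost without siC C2 (limma adjusted p = 0.0537), without siC C3 (0.156), without siIGF2BP3 replicate 1 (0.0666) and without siIGF2BP3 replicate 2 (0.0593). DESeq2 did not call it (adjusted p = 0.0698). Not every member of the list was lower in siIGF2BP3 than in siC. The log2 difference was 0.06 for miR-146b-5p, 0.41 for miR-200b-3p, 0.83 for miR-141-3p and 1.73 for miR-200c-3p, against -2.33 for miR-335-5p. limma called none of these. miR-200b-3p, miR-141-3p and miR-200c-3p averaged at most 2.91 normalised reads in either group.

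In siIGF2BP2 against siC, limma called 1 member of the list higher and 1 lower, where 1.24% of all 889 miRNAs were called higher and 7.76% lower. edgeR called 1 higher and 1 lower of 3, and DESeq2 1 higher and 2 lower of 7, with no share over all miRNAs given for either. The higher one was miR-146a-5p, at 976 ± 31.8 normalised reads in siIGF2BP2 (log2 1.22, limma adjusted p = 2.41e-05). The lower one was miR-126-3p, at 2.73 ± 0.777 in siIGF2BP2 (log2 -2.65, limma adjusted p = 0.0177), a call lost without siC C2 (0.199), without siIGF2BP2 replicate 2 (0.0533) and with a pseudocount of 0.1 (0.195). Within the block, siIGF2BP3 against siIGF2BP2, the 1 call was again miR-146a-5p, lower in siIGF2BP3 (log2 -2.21, limma adjusted p = 1.05e-07), where 1.69% of all 889 miRNAs were called lower.

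In siIGF2BP1 against siC limma called 0 of these 8 (2 at an unadjusted p under 0.05), where it called 2.47% of all 889 miRNAs. edgeR called 0 of 3 and DESeq2 0 of 3. The median log2 difference of the list from siC was 0.35 in siIGF2BP1, 0.10 in siIGF2BP2 and -0.47 in siIGF2BP3, against 0.10, -0.03 and 0 over all 889 miRNAs. When members with at most 3 reads in all in both groups were left out and those at 0 in a group were set at their bound, the medians were 0.37 over 5 members in siIGF2BP1, 0.01 over 7 in siIGF2BP2 and -0.99 over 7 in siIGF2BP3.

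Of 7 miRNAs known for promoting metastasis, 5 were tested. In siIGF2BP3 against siC limma called 0 higher and 1 lower, where it called 8.66% of all 889 miRNAs lower. edgeR and DESeq2 each called 0 higher and 2 lower of 4, and their own shares over all miRNAs are not given. The miRNA that limma called was miR-21-5p, which represses PDCD4. It averaged 59134 ± 3217 normalised reads in siIGF2BP3 (SD, n = 3) and 85012 ± 1202 in siC (SD, n = 2), a log2 difference of -0.53 (limma adjusted p = 0.00104) that was -0.14 with upper quartile scaling (limma adjusted p = 0.542). Within the block it was lower in siIGF2BP3 than in siIGF2BP2 (log2 -0.68, limma adjusted p = 0.000219).

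In siIGF2BP1 against siC limma called 0 of the 5 (3 at an unadjusted p under 0.05), where it called 2.47% of all 889 miRNAs. edgeR and DESeq2 called 0 of 4. In siIGF2BP2 against siC limma called 0 of the 5 (0 at an unadjusted p under 0.05), where it called 1.24% of all 889 miRNAs higher and 7.76% lower. Here too edgeR and DESeq2 called 0 of 4. The median log2 difference of the list from siC was -0.02 in siIGF2BP1, -0.20 in siIGF2BP2 and -0.41 in siIGF2BP3. Without miR-373-3p, which had at most 3 reads in all in each group of these contrasts, the medians over the other 4 were 0.14 in siIGF2BP1, -0.02 in siIGF2BP2 and -0.14 in siIGF2BP3. miR-10b-5p, an invasion-promoting miRNA in breast cancer, averaged 22769 ± 2523 in siIGF2BP1, 21196 ± 828 in siIGF2BP2, 18323 ± 1308 in siIGF2BP3 and 24895 ± 7823 in siC. limma did not call it against siC in any of the 3 knockdowns. Of the 2 members that edgeR and DESeq2 each called lower in siIGF2BP3 against siC, 1 was miR-21-5p (edgeR adjusted p = 0.000229, DESeq2 adjusted p = 3.18e-09). The other, which may be miR-10b-5p, is not given here.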

How the data were processed

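Small RNA reads of 10 ES-2 libraries had been made into a table of mature miRNAs by the authors. Per the submitters' processing notes, Bowtie2 2.2.4, cutadapt 1.6, edgeR 3.12 and featureCounts 1.4.6 were used with genome build hg19, while how values were scaled and which miRNA annotation was used is not stated there. The deposited library columns hold a normalised signal, and every value in them could be divided by what 1 read is worth to give whole reads, to within 0.01 reads. The authors' deposited log2 fold changes, p-values and false discovery rates were used only where that table is named. Rows of the same mature miRNA were summed (2794 rows, 2576 miRNAs). The 2 siC columns carry no replicate number that ties them to single samples and are called C2 and C3 in the plots. In total 0 columns of other samples were unused.

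The main test was limma 3.58.1 (R 4.3.3) with an intensity trend, in place of edgeR, since the signal is normalised. It used log2(value + 1) of the 889 miRNAs that reached a value of 1 in 2 or more libraries, fitted the 4 groups jointly and adjusted p-values by Benjamini and Hochberg over the 889 (threshold 0.05). Both strands of miR-31 passed this filter. Fold changes on this scale understate changes of low miRNAs. Recovered reads were also tested with edgeR 4.0.16 (quasi-likelihood) and DESeq2 1.42.0. Both filter miRNAs by their own rules, and the shares of all miRNAs called are those of limma alone. Shares were compared by exact permutation tests with Clopper-Pearson 95% intervals (scipy 1.17.1). PCR reads carry no molecular identifiers, so intervals and the floor of 3 reads cover counting error only. Fits by limma and by edgeR were also run on simulated counts, but the outcome is not given here and no statement rests on it. Chi-square statistics between replicates, divided by their degrees of freedom, were 8.17 to 46.8, above sampling noise, so each library counts once in n. The named miRNAs are both strands, the nearest in abundance and profile, and some members of each list. The members and lists were chosen with earlier results of these data known. RefSeq coordinates are of GRCh38.p14, another build than the authors' hg19.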

Additional observations from a re-analysis of the deposited data

How the results depend on the processing

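Over the 18 results on miR-31, 231 alternatives were computed, of which 191 kept the direction, the side of the threshold and, without a test, a value within the spread. For the strand shares that were tested, the exact permutation p cannot fall below 0.2. Their side of the threshold was therefore fixed beforehand, and only their direction could change. Values of miR-31-5p that moved are log2 differences. For siIGF2BP1 vs siC they were -0.45 (edgeR) and -0.43 (DESeq2), and for siIGF2BP2 vs siC 0.16 (upper quartile) and -0.31 (DESeq2). For siIGF2BP3 vs siC they were 0.58 with TMM, median of ratios, edgeR and DESeq2, and 1.07 with upper quartile scaling. For siIGF2BP3 vs siIGF2BP1 they were 1.01 (median of ratios and DESeq2), 1.49 (upper quartile), 0.97 (library totals) and 1.03 (edgeR), and for siIGF2BP2 vs siIGF2BP1 0.12 (median of ratios and DESeq2), 0.58 (upper quartile), 0.0020 (library totals) and 0.15 (edgeR). For miR-31-3p, siIGF2BP1 vs siC gave -1.78 (median of ratios), -1.57 (no filter), -1.91 (edgeR) and -1.89 (DESeq2), and siIGF2BP2 vs siC 0.30 (upper quartile). The cause of these shifts was not tested. Leaving out each library in turn gave -0.0992 to 0.0109 for miR-31-5p in siIGF2BP2 vs siIGF2BP1, -0.31 to 0.19 for miR-31-3p in siIGF2BP2 vs siC, and 1.26 to 1.75 for miR-31-3p in siIGF2BP2 vs siIGF2BP1. The share of miR-31-3p differed by -0.0347 to 0.354 percentage points in siIGF2BP2 vs siC, -0.0889 to 0.344 in siIGF2BP3 vs siC and -0.239 to 0.204 in siIGF2BP3 vs siIGF2BP2. Where a group was left with 1 library, that library is assumed to vary like the others.

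Deviations from group means correlated at -0.157 to 0.123 between same-numbered knockdown libraries, and at -0.15 to 0.201 between differently numbered ones. With 2 or 3 libraries a group, deviations within a group depend on each other, so this cannot decide whether replicate numbers pair the samples. With the replicate block, the log2 difference of miR-31-3p in siIGF2BP2 vs siIGF2BP1 was 1.59 (limma adjusted p = 0.0886), and in the knockdown libraries alone, an alternative chosen after seeing the data, it was 1.48 (limma adjusted p = 0.0506). The block gave 0.93 for miR-31-5p in siIGF2BP3 vs siIGF2BP2. No paired analysis was possible because the siC columns carry no replicate number for contrasts with siC. The 11 to 51 reads of miR-31-3p per library limit its precision. The same settings were applied, after seeing the data, to the 9 printed calls of list members, and 126 of 140 kept the call, 14 lost it and 0 reversed.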
